A study of Mus musculus with 3 samples.

Results

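DNA replication and mitosis genes were followed as a group of 40: 18 genes used to copy DNA (the replication list) and 22 used to enter and carry out mitosis (the mitosis list). They were chosen by name, without a measured value in the rule, and all 40 have 1 row in each of the 3 count tables, out of 17864 gene symbols the tables share. The tables come from wild-type mouse kidney at stage E14.5, from a mixed strain (mostly CD-1 and 129 in the labels). The platforms were 10x Chromium, Drop-seq and Fluidigm C1, each with 1 library. Drop-seq and 10x put single cells in droplets with barcoded beads and count transcripts by unique molecular identifiers (UMIs). Fluidigm C1 holds single cells in the chambers of a microfluidic chip, and its counts are reads. No treatment, mutant or second embryonic stage is part of the design, so the comparisons are between cell classes within each library.

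A dividing cell first licenses its replication origins by loading the MCM helicase, which needs Cdc6 and Cdt1, and then fires them once under cyclin E, in S phase. Most replication genes are switched on at the border of G1 and S by the E2F factors. Genes of mitosis are switched on later, in G2, by the MuvB complex with B-MYB and FOXM1 and by NF-Y. MuvB reads a short promoter motif called the cell cycle genes homology region (CHR), and NF-Y reads CCAAT boxes. In the embryonic kidney the cap mesenchyme is the self-renewing pool of nephron progenitors, the early nephron epithelium (renal vesicle to S-shaped body) is what they turn into, the ureteric epithelium branches through them, and the Foxd1-expressing nephrogenic-zone stroma surrounds them.

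The promoter motifs show how the lists differ in sequence, in a measure that uses no count. RefSeq promoters, 250 bases before to 50 after the start on GRCm38.p6 (the patch release of mm10), were given for 34 of the 40 genes, 15 of the replication list and 19 of the mitosis list. Mcm4, Gins2, Ccne2, Ccna2, Aurkb and Tpx2 were not matched. The windows below are the 250 bases before the start of 2 replication genes and 4 mitosis genes, shown because each holds the motifs of its list within these bases and lies outside the gene's own annotated exons. Capitals mark E2F (TTTCGCGC or TTTGGCGC), CHR (TTTGAA or TTCGAA) and CCAAT letters found on either strand, so that CCAAT may read ATTGG and TTTGAA may read TTCAAA, and each line is 5′ to 3′ on the gene's strand. The intervals are chr8:75109259-75109508 on the plus strand for Mcm5, chr1:128359706-128359955 on the minus strand for Mcm6, chr7:135716380-135716629 on the minus strand for Mki67, chr11:99024190-99024439 on the minus strand for Top2a, chr19:37376132-37376381 on the plus strand for Kif11 and chr9:70421555-70421804 on the minus strand for Ccnb2.
Mcm5: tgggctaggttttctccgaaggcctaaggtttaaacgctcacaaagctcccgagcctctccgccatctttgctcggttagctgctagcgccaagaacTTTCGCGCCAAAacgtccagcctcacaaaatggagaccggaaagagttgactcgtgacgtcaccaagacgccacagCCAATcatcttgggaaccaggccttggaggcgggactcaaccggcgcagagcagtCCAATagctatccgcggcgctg
Mcm6: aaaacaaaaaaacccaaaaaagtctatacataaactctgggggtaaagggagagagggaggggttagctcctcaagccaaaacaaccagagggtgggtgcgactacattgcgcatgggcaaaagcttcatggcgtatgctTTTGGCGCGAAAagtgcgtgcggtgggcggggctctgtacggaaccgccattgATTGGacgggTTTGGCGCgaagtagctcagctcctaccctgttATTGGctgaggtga
Mki67: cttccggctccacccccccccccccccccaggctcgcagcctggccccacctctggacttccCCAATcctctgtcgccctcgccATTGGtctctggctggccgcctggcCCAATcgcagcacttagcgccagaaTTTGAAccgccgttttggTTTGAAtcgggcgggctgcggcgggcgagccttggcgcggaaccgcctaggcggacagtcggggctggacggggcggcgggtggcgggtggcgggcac
Top2a: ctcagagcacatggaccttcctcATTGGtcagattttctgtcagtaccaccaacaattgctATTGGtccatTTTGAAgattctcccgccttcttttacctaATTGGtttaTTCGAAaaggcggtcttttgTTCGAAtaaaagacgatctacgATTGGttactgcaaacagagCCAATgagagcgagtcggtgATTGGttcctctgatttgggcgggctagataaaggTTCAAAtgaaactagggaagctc
Kif11: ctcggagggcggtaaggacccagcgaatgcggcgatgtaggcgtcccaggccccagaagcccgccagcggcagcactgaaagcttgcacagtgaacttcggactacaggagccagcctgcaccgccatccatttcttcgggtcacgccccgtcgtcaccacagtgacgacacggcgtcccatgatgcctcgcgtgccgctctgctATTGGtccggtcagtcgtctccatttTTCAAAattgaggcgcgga
Ccnb2: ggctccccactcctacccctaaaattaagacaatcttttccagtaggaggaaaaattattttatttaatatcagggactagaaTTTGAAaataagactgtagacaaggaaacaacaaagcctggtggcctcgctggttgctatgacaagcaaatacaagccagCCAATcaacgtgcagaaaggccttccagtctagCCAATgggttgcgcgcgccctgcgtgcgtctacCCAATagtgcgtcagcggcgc

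Over the full windows, an E2F motif was present in 5 of 15 replication promoters (33.3%), against 1 of 19 mitosis promoters (5.26%) and 225 of all 27025 promoters in the table (0.833%). The 5 were Mcm3, Mcm5, Mcm6, Mcm7 and Cdt1, all of them genes of origin licensing, and the 1 mitosis promoter was that of Cdk1. A CHR motif was present in 15 of 19 mitosis promoters (78.9%), in 2 of 15 replication promoters (13.3%) and in 19.4% of all promoters. CCAAT was present in 89.5% of mitosis, 60.0% of replication and 37.9% of all promoters. Both CHR and CCAAT were present in the same 15 mitosis promoters (78.9%), in 13.3% of replication promoters and in 7.70% of all promoters. Matches on the 2 strands can overlap: TTCGAA is its own reverse complement, and the longer E2F run in Mcm5 and in Mcm6 is a pair of overlapping matches. A match describes the sequence and is not evidence of binding.

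The kept cells numbered 1964 in Drop-seq, 2130 in 10x and 883 in Fluidigm C1, with medians of 7060 UMIs, 7369 UMIs and 166712 reads per cell. No cell barcode was shared between libraries. Classes were built by clustering each library without the 40 genes, the other cell cycle lists, histone, haemoglobin, mitochondrial and ribosomal genes, and named from fixed markers. Cap mesenchyme held 573, 231 and 265 cells in Drop-seq, 10x and C1, nephron epithelium 524, 371 and 128, ureteric epithelium 175, 153 and 89, stroma 446, 775 and 274, and endothelium 102, 369 and 78. Podocytes were named in Drop-seq and 10x (84 and 79 cells), and distal tubule likewise (87 and 137), while C1 had neither. The line between nephrogenic-zone and other stroma was not drawn at the same place in each library: a Gucy1a3- and Penk-led cluster of 155 cells in Drop-seq fell in the nephrogenic zone and its 10x counterpart of 201 cells in other stroma. In C1, 2 cap mesenchyme clusters of 100 and 90 cells had 1 and 0 cap markers among their 10 leading genes.

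To compare cells of unequal depth, each was thinned to 4000 UMIs (Drop-seq and 10x) or 50000 reads (C1), and shallower cells were left out: 40 in Drop-seq, 248 in 10x and 42 in Fluidigm C1. The share of cells with a count of a gene then ran in Drop-seq from 11.6% (Psrc1) to 61.6% (Pcna), in 10x from 6.06% (Ccne2) to 52.1% (Slbp), and in C1 from 19.5% (Ccne2) to 89.5% (Top2a). Drop-seq had the higher share of the UMI platforms for 36 of 40 genes, all but Mcm5, Tyms, Ung and Slbp. C1 had the highest share for all 40, at a depth in reads that cannot be set against UMIs. With 1 library a platform, platform and embryo cannot be told apart. Of the origin licensing genes, the helicase loaders Cdc6 and Cdt1 had the lowest shares in Drop-seq and 10x, below every MCM subunit. Cdc6 was counted in 11.9% of Drop-seq, 6.48% of 10x and 32.6% of C1 cells, and Mcm7 in 46%, 33.6% and 85.5%.

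**Figure D1:**
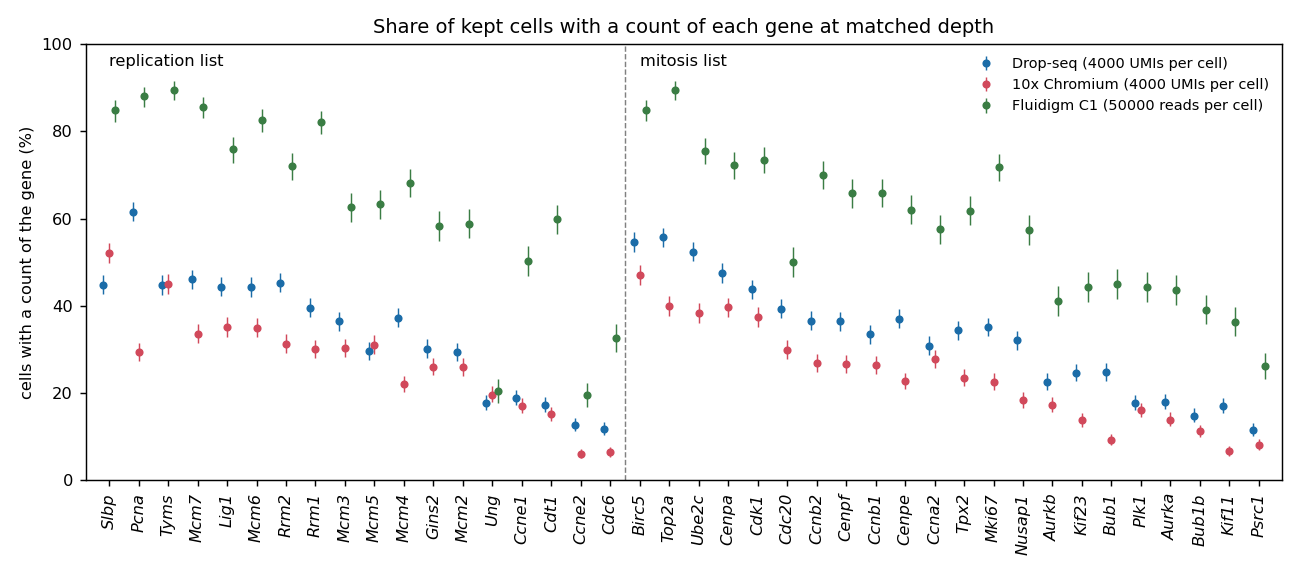
Share of kept cells with a count of each of the 40 genes (vertical axis, %) at matched depth, coloured by platform, with 95% exact binomial intervals that cover counting error only; within each list genes are ordered by their mean share over Drop-seq and 10x. The C1 points lie highest for every gene, and Drop-seq lies above 10x for 36 of 40.

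Within a class, genes of a list were counted in the same cells. For each gene, the number of other list members detected at matched depth was compared between cells with and without a count of it, within stroma and within cap mesenchyme. In every library and both classes, all 22 mitosis genes had a larger gain of other mitosis genes than of replication genes. Their median gain in stroma was 5.35 other mitosis genes in Drop-seq, 6.30 in 10x and 6.02 in Fluidigm C1, beside -0.60, -0.05 and 0.82 other replication genes. Ccnb1, the cyclin that drives entry into mitosis, gained 6.59, 7.35 and 6.01 other mitosis genes, and Aurka, the kinase of the spindle poles, 5.59, 7.85 and 7.05.

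Replication genes were counted together more loosely. Their own-list gain in stroma had a median of 1.73 genes in Drop-seq, 2.16 in 10x and 3.04 in Fluidigm C1, and it exceeded the mitosis gain for 16, 16 and 17 of 18 genes. In cap mesenchyme the counts were 16, 17 and 10 of 18. Cdt1 and Ung were counted with fewer mitosis genes in all 3 libraries: for Cdt1, the loader degraded once S phase begins, the mitosis gain in stroma (Drop-seq, then 10x, then C1) was -2.57, -1.35 and -1.36, and for Ung, the uracil glycosylase, -2.52, -2.84 and -0.16. In stroma, genes of nucleotide supply gained mitosis genes. Rrm1, the large subunit of ribonucleotide reductase, gained 2.06, 3.46 and 3.97 mitosis genes, more than its 0.40, 1.25 and 3.16 replication genes. In cap mesenchyme this held in Drop-seq and C1, while in 10x Rrm1 gained 0.32 mitosis and 1.63 replication genes. Tyms, thymidylate synthase, gained in stroma 2.02, 3.24 and 3.78 mitosis genes beside 1.78, 2.14 and 3.82 replication genes. On the mitosis side, Top2a (topoisomerase II) and Cdk1 had the largest gains of replication genes in stroma in all 3 libraries, with 0.62, 2.01 and 2.65 for Top2a and 0.71, 1.10 and 2.57 for Cdk1. In cap mesenchyme both led in 10x, but in Drop-seq Ccna2 (0.44) stood above Cdk1 (0.41), and in C1 Birc5 stood above Top2a. These are descriptions over cells of 1 library, and cells with 2 or more mitosis genes were also deeper before thinning: in stroma, median 6911.5 against 5474 UMIs for cells with replication genes alone in Drop-seq, 7292.5 against 5958 in 10x, and 145394 against 91735 reads in C1.

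**Figure D2:**
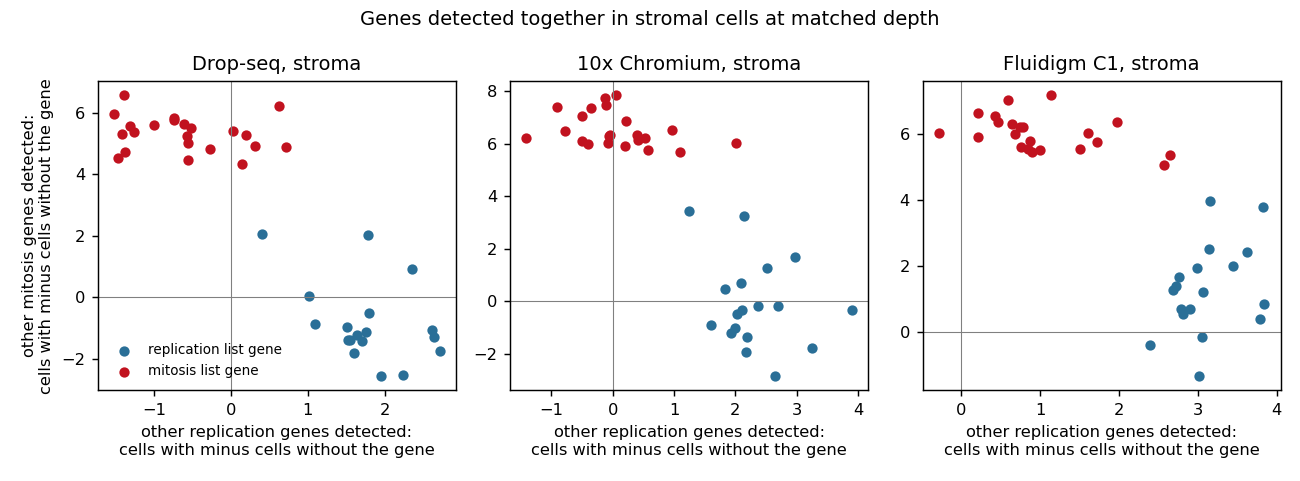
For each gene, the mean number of other replication genes (horizontal) and other mitosis genes (vertical) detected in stromal cells with a count of the gene minus stromal cells without it, at matched depth, in each library. The mitosis genes form a group at 4.33 or more on the vertical axis, apart from the replication genes, whose highest value is 3.97.

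A cut of 2 or more genes of a list, chosen with the design, was passed by most cells: 93% of Drop-seq, 85.4% of 10x and 99.8% of C1 cells for the replication list, and 84%, 67.8% and 99.2% for the mitosis list. Podocytes, meant as a low reference because mature podocytes leave the cycle, passed it too, at 78.5% in Drop-seq and 59.7% in 10x for the mitosis list. No class therefore stood as one that lacks these transcripts, and the part of free RNA in the shares was not tested. A cut of 10 or more genes, added after seeing the data, left 17.6%, 11.1% and 69.3% of cells for replication and 34.2%, 22.4% and 63% for mitosis. Between 4.26% and 20.8% of the cells of a class had 9 or 10 genes of a list in Fluidigm C1, so a class share describes a range of a continuous count.

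By the 10-gene cut, the early nephron epithelium had the highest share of cells with mitosis genes in all 3 libraries among the classes plotted. The Drop-seq share was 46.3% (95% exact binomial interval 40 to 52.8), beside 28.5% (20.9 to 37) in 10x and 92.7% (82.4 to 98) in C1. In cap mesenchyme it was 30% (26.3 to 34), 13.8% (9.45 to 19.2) and 66.5% (60.4 to 72.3), below the early nephron interval in each library. In 10x, nephrogenic-zone stroma stood level with early nephron, at 28.3%. Early nephron cells were also deeper before thinning, with medians of 8688 UMIs, 11184 UMIs and 200725 reads against 6762, 8526 and 163800 in cap mesenchyme, and thinning is the one correction for depth made here. At matched depth their cells had medians of 1908, 1726 and 4599 detected genes of any kind, against 1852, 1683.5 and 4086 in cap mesenchyme. The C1 early nephron median was the highest of the C1 classes. The part of this in the shares was not tested. Within the nephron, the proximal tubule stood at 34.6%, 13.8% and 62.5%. Distal tubule and loop stood at 40.7% (30.2 to 51.8) in Drop-seq and 25% in 10x, and podocytes at 31.6% (21.6 to 43.1) and 23.6% (14.4 to 35.1), with intervals that overlap those of the early nephron. By gene, the early nephron epithelium held the highest share for 15 of 22 mitosis genes in Drop-seq, 12 in 10x and 18 in Fluidigm C1.

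For replication genes the order by the 10-gene cut was different in Drop-seq and 10x. The share with 10 or more was 21.8%, 10% and 79.5% in cap mesenchyme and 16.7%, 8.46% and 89.1% in early nephron epithelium, with overlapping intervals in each library. The early nephron led in C1 by the 10-gene cut too. At a cut of 5 or more genes, also added after seeing the data, the early nephron stood above cap mesenchyme in all 3 libraries. Its shares were 80.5%, 56.9% and 100%, against 64.9%, 51.4% and 98.8% in cap mesenchyme. By gene, the early nephron epithelium held the highest share for 15 of 18 replication genes in C1 and for 6 in Drop-seq, and nephrogenic-zone stroma for 13 of 18 in 10x. The share with 10 or more was 6.33% in Drop-seq and 6.94% in 10x podocytes, and 3.45% (0.717 to 9.75) in the 10x proximal tubule, the class with the lowest share for 15 of 18 replication and 13 of 22 mitosis genes in that library. In C1, other stroma was the lowest class for 13 of 18 replication and 21 of 22 mitosis genes.

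**Figure D3:**
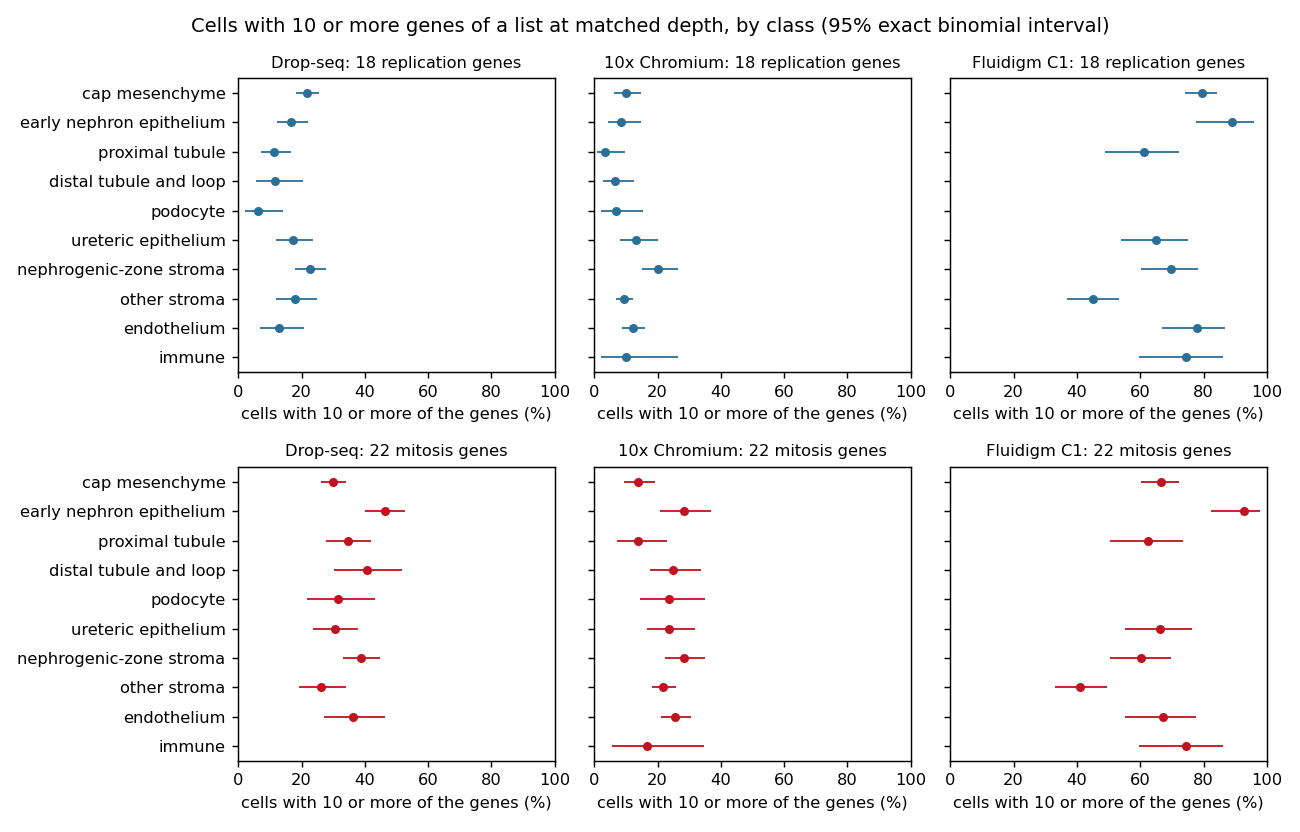
Share of cells with 10 or more genes of the replication list (top) or mitosis list (bottom) at matched depth, by class, in each library, with 95% exact binomial intervals for counting error. Early nephron epithelium is the rightmost point for mitosis genes in each library, at 46.3%, 28.5% and 92.7%.

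The tests between classes used summed raw counts per library and class, edgeR's quasi-likelihood F test with library as a block, and Benjamini-Hochberg adjustment over all genes tested, at 0.05. All 40 genes passed the filter on low counts in every comparison. Of 3 class sums a class, 15 in all, 8 residual degrees of freedom remained (18 and 10 where stroma was split). The labels do not say how many embryos a library pools, so the p-values measure only the spread of classes over these 3 libraries, which may be technical. An exact paired test over 3 libraries cannot go below a two-sided p of 0.25 and was not used.

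Against stroma, cap mesenchyme had 1 of the 40 genes called higher and 0 called lower, where 4.55% of 9227 genes were called higher and 3.63% lower. The gene was Mcm7, a helicase subunit. Its class level was 197 CPM (counts scaled to a common class total) in cap mesenchyme against 158 in stroma in Drop-seq, 138 against 101 in 10x and 301 against 202 in C1, higher in cap in 3 of 3. The fitted log2 fold change was 0.52 (SE 0.13, edgeR adjusted p = 0.02), and the adjusted p was 0.197 without the Drop-seq library and 0.107 without 10x. Mcm7 shares 321 exonic bases with Ap4m1 on the other strand and holds the miRNA genes Mir25 and Mir93, so reads there may not all be Mcm7. The median log2 fold change was 0.08 for the replication list, beside 0.07 for all genes tested, and the mitosis list -0.04.

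Other lists are set beside the 4.55% of 9227 genes called higher in cap mesenchyme and 3.63% lower. Of other replication genes, 4 of 55 rose in cap mesenchyme and 0 fell, and of other mitosis genes 2 of 65 tested rose. Of G1 cyclins, CDK inhibitors and exit genes, 2 rose and 2 fell among 21 tested. The 4 with the smallest p were Cenpw, a kinetochore subunit (log2 fold change 1.21, SE 0.18, adjusted p = 0.00119), Cdkn1c, the CDK inhibitor p57 (log2 fold change -1.34, SE 0.21, adjusted p = 0.00351), the G1 cyclin Ccnd2 (log2 fold change -1.24, SE 0.24, adjusted p = 0.0116) and Dut, the dUTPase (log2 fold change 0.78, SE 0.17, adjusted p = 0.0139), by edgeR.

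Against cap mesenchyme, nephron epithelium had 1 of 40 genes called lower and 0 higher, where 2.24% of 9227 genes were called lower and 4.11% higher. The gene was Ccne1, cyclin E1, which activates CDK2 for entry into S phase. Its CPM was 41.2 in nephron against 62.5 in cap in Drop-seq, 21.2 against 57.3 in 10x and 52.9 against 91.1 in C1, lower in 3 of 3, with a log2 fold change of -0.88 (SE 0.24, edgeR adjusted p = 0.0387). The adjusted p was 0.162 without the Drop-seq library and 0.207 without 10x. With early nephron epithelium alone in place of the whole nephron, Ccne1 had a log2 fold change of -0.30 (edgeR adjusted p = 0.688), and its 10x CPM was 28.3 there against 2.73 in the proximal tubule.

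Across the lists the signs split, with Ccne1 the only gene called. Of 18 replication genes, 17 had a log2 fold change below 0 (median -0.26) and 15 were lower in all 3 libraries, while 18 of 22 mitosis genes were above 0 (median 0.19) and 12 were higher in all 3, beside a median of -0.04 and 4245 of 9227 genes above 0 over all genes tested. Ube2c, the ubiquitin-conjugating enzyme of the anaphase-promoting complex, had 0.51 (SE 0.16, edgeR adjusted p = 0.0794). With early nephron epithelium alone, 10 of 18 replication genes were above 0 (median 0.08) and 21 of 22 mitosis genes (median 0.28), with 0 of 40 called by edgeR, where 0.672% of 9084 genes were called higher and 0.308% lower. The lower values of the replication list were thus not seen with the early nephron alone, and the higher values of the mitosis list were.

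In the whole nephron epithelium against cap mesenchyme, 4.11% of 9227 genes were called higher and 2.24% lower. Of the other lists there, 2 of 55 replication genes fell, and 2 of 65 mitosis genes rose and 1 fell. Among 21 G1 and exit genes 3 rose and 2 fell. The 4 with the smallest p were Ccnd1, cyclin D1 (log2 fold change 1.96, SE 0.30, adjusted p = 0.00405), Cenpw (log2 fold change -0.93, SE 0.18, adjusted p = 0.00496), Cdkn1c (log2 fold change -1.20, SE 0.21, adjusted p = 0.00683) and Cks2, a subunit that binds CDKs (log2 fold change 0.60, SE 0.15, adjusted p = 0.023), by edgeR.

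**Figure D4:**
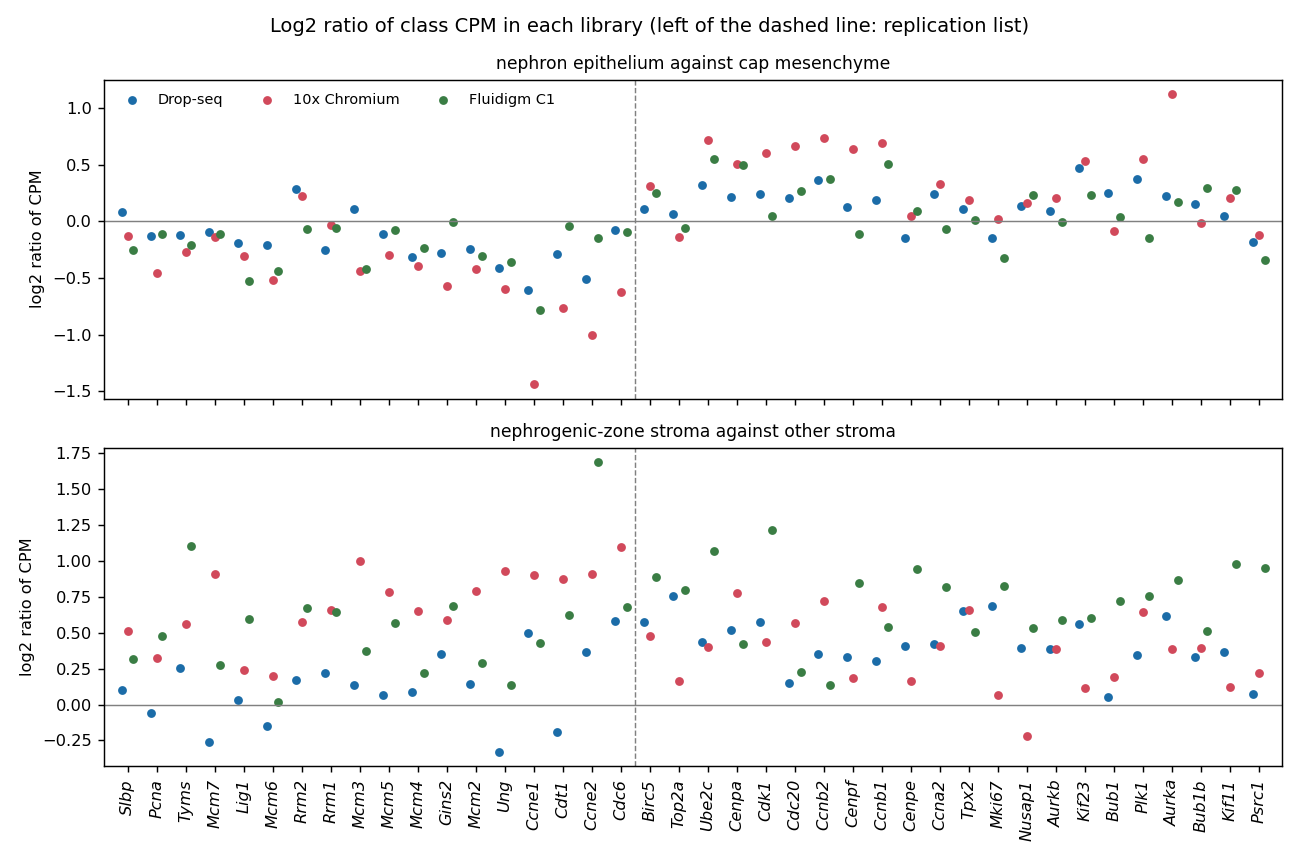
Log2 ratio of class CPM for each gene in each library (points), for nephron epithelium over cap mesenchyme (top) and nephrogenic-zone over other stroma (bottom), replication list left of the dashed line. In the top panel 15 of 18 replication genes lie below 0 in all 3 libraries, and in the bottom panel 21 of 22 mitosis genes lie above 0 in all 3.

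Ureteric epithelium had 0 of 40 genes called against nephron epithelium by edgeR, where 2.37% of 9227 genes were called higher and 2.2% lower. An unadjusted edgeR p under 0.05 was found for 11 of 40, beside 1742 of 9227 genes tested. DESeq2 also called 0, where it called 3.44% of all genes higher and 2.87% lower. Of the mitosis genes, 20 of 22 were below 0 (median -0.31) and 10 lower in all 3 libraries, beside a median of -0.04 over all genes. Bub1b, the checkpoint kinase BubR1, had -0.65 (SE 0.19, edgeR adjusted p = 0.0683). Against early nephron epithelium alone, an alternative added after seeing the data, 4 of 40 were called lower by edgeR, where 2.27% of 9084 genes were called lower and 2.49% higher: Rrm2, the small subunit of ribonucleotide reductase (log2 fold change -1.07, adjusted p = 0.0143), Mcm7 (-0.71, adjusted p = 0.0117), Bub1b (-0.79, adjusted p = 0.0386) and Cenpa (-0.64, adjusted p = 0.0289). The other lists were read against the whole nephron epithelium again, where 2.37% of 9227 genes were called higher and 2.2% lower. There 3 of 21 G1 and exit genes rose and 0 fell, 1 of 65 mitosis genes rose and 1 fell, and 0 of 55 replication genes moved. The antiproliferative gene Btg1 (log2 fold change 0.995, SE 0.15, adjusted p = 0.00141), the phosphatase Cdc25b, which activates CDK1 (log2 fold change 1.52, SE 0.24, adjusted p = 0.00235), Btg2 (log2 fold change 1.32, SE 0.27, adjusted p = 0.0115) and Ccnd2 (log2 fold change 1.15, SE 0.25, adjusted p = 0.0253) had the smallest p by edgeR.

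Endothelium against stroma had 2 genes called higher and 2 lower, where 10.1% of 9227 genes were called higher and 7.34% lower. Ccne1 was lower: its CPM was 28.3 in endothelium against 92.8 in stroma in Drop-seq, 31.2 against 95.9 in 10x and 73.7 against 98.6 in C1 (log2 fold change -1.02, SE 0.24, edgeR adjusted p = 0.0105). Mcm3, another helicase subunit, was higher, at 149 against 139, 132 against 106 and 118 against 68.7 CPM (log2 fold change 0.53, SE 0.15, edgeR adjusted p = 0.0257). Without the Drop-seq or the 10x library the adjusted p was 0.119 or 0.0693 for Ccne1 and 0.116 or 0.189 for Mcm3, and without C1 it was 0.105 for Mcm3. Ccne1 and Mcm3, both of the start of S phase, thus went in opposite directions in 3 of 3 libraries. Other helicase subunits did not all go with Mcm3 in Drop-seq. In Drop-seq at matched depth, endothelium had the lowest share of the classes tested for Mcm2 (22.5%), Mcm4 (30.4%) and Mcm7 (41.2%). It had the highest for Mcm3 (45.1%) and Mcm5 (37.3%). The low Mcm2 and Mcm4 shares were not seen in the other libraries. Endothelium was the highest class for Mcm2, Mcm3 and Mcm5 in 10x (30.1%, 35.4% and 36.6%) and in C1 (72.6%, 71.2% and 74.0%). For Mcm4 it was the highest in C1 (75.3%) but not in 10x, and for Mcm6 and Mcm7 in neither.

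Mcm7 was called higher (0.41, SE 0.13, edgeR adjusted p = 0.0385), but was 157 against 158 CPM in Drop-seq, 142 against 101 in 10x and 247 against 202 in C1, higher in 2 of 3. Psrc1, a microtubule-binding gene, was lower (-0.77, SE 0.25, edgeR adjusted p = 0.0413), at 23.6 against 38.6, 13 against 31 and 13.2 against 20.6 CPM. Without the Drop-seq or the 10x library the adjusted p was 0.152 or 0.494 for Mcm7 and 0.123 or 0.307 for Psrc1. With cells thinned to equal depth the Psrc1 log2 fold change was -0.15 (edgeR adjusted p = 0.781). The replication list had a median of 0.29 and the mitosis list 0.17, beside 0.02 for all genes.

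Beside the 10.1% of 9227 genes called higher in endothelium and 7.34% lower, the other lists had few calls. Of these lists, 3 of 55 replication genes rose, 1 of 65 mitosis genes rose and 3 fell. Among 21 G1 and exit genes 2 rose and 2 fell. The smallest p by edgeR were those of Cdkn1c (log2 fold change -2.57, SE 0.23, adjusted p = 2.42e-05), Trp53 (log2 fold change 0.82, SE 0.14, adjusted p = 0.000908), Ccnd2 (log2 fold change -1.65, SE 0.25, adjusted p = 0.00126) and Btg1 (log2 fold change 0.80, SE 0.15, adjusted p = 0.00188). The G1 and exit genes with the smallest p thus included the same D-type cyclin and CDK inhibitor, Ccnd2 and Cdkn1c, as in cap mesenchyme, both lower than in stroma; the stroma sums are shared by these comparisons.

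Nephrogenic-zone stroma against other stroma had 0 of 40 genes called by edgeR, where 0.185% of 9203 genes were called higher and 0.206% lower, but it was the comparison in which the lists had their medians farthest from that of all genes. All 40 genes had a log2 fold change above 0, with a median of 0.56, beside 4742 of 9203 genes and a median of 0.01 over all genes tested. An unadjusted edgeR p under 0.05 was found for 33 of 40, beside 1434 of 9203 genes tested. Genes of a list were counted in the same cells, so here and in the other comparisons their signs and p-values are not independent. DESeq2 called 11 of 40 higher, where it called 1.22% of all genes (112) higher and 92 genes lower. The lowest adjusted p by edgeR was that of Birc5, survivin, of the chromosomal passenger complex (0.71, SE 0.16, edgeR adjusted p = 0.0549). Its CPM was 384 in the nephrogenic zone against 258 in other stroma in Drop-seq, 359.6 against 259 in 10x and 664 against 359 in C1. In per-library CPM, 13 of 18 replication genes and 21 of 22 mitosis genes were higher in all 3 libraries, and the exception on the mitosis side was Nusap1, lower in 10x. Ccne2, cyclin E2, had the largest fitted value, 1.07 (SE 0.27, edgeR adjusted p = 0.0859).

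The share of cells with 10 or more mitosis genes was 38.9% against 26% in Drop-seq, 28.3% against 21.8% in 10x and 60.4% against 41.1% in C1. With 10 or more replication genes it was 22.6% against 17.8%, 20.3% against 9.34% and 69.8% against 45%. The 95% exact binomial intervals overlapped for mitosis genes in Drop-seq (33.2 to 44.8 against 19.1 to 33.9) and 10x (22.3 to 34.9 against 18.2 to 25.7). For replication genes they overlapped in Drop-seq (17.9 to 27.8 against 12 to 25). They did not overlap in C1 for either list, or in 10x for replication genes. Before thinning, nephrogenic-zone cells had medians of 6008 UMIs, 7489.5 UMIs and 144996 reads in Drop-seq, 10x and C1. Those of other stroma were 8748.5, 5846 and 130678. Without thinning, the Drop-seq shares with 10 or more genes reversed, to 48.7% against 51.4% for mitosis and 44.6% against 60.1% for replication. In 10x and C1 they kept their direction. The part of depth in these shares was not tested. Of the other lists, 0 of 21 G1 and exit genes moved and 0 of any list fell, where 0.185% of 9203 genes were called higher. Those that rose were 3 of 65 mitosis genes (64 of 65 above 0) and 2 of 55 replication genes (54 of 55 above 0). They were Pttg1, securin (log2 fold change 0.75, SE 0.13, adjusted p = 0.0467), Hmgb2 (log2 fold change 0.65, SE 0.13, adjusted p = 0.0467), the chromatin remodeller Hells (log2 fold change 0.73, SE 0.15, adjusted p = 0.0467), the recombination gene Rad51ap1 (log2 fold change 0.87, SE 0.19, adjusted p = 0.0479) and, past the 4 the rule names and given to complete the count, Cks1b (log2 fold change 0.61, SE 0.13, adjusted p = 0.0483), by edgeR. As stated above, the zone was not drawn alike in the libraries, and the number of members called ran from 0 to 27 over the settings tried.

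**Figure D5:**
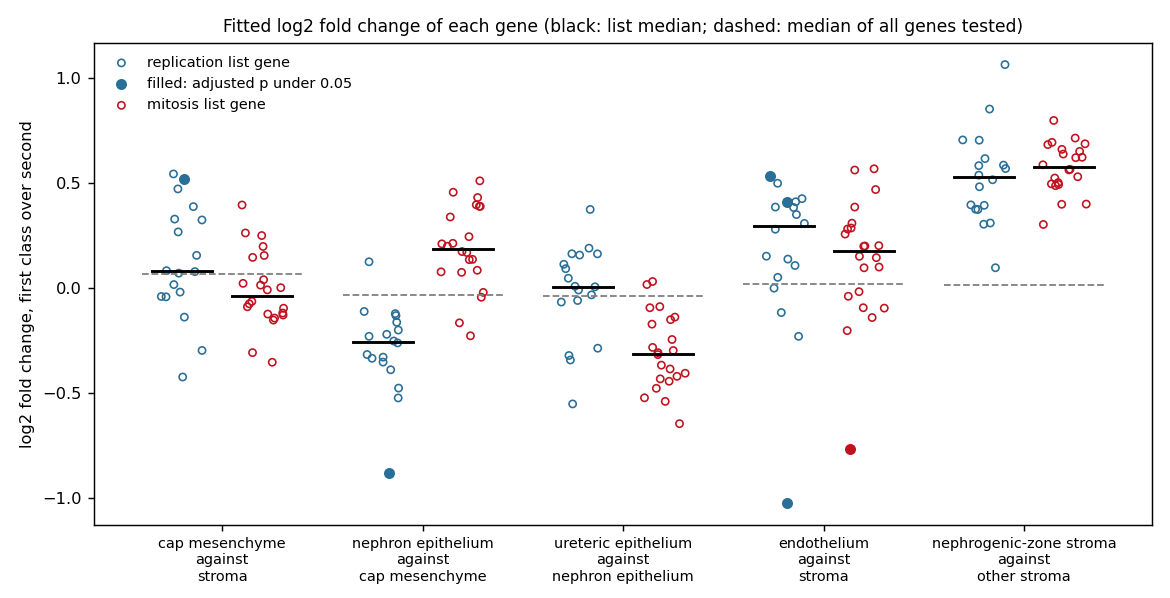
Fitted log2 fold change of each gene (circles, filled where the edgeR adjusted p is under 0.05) in the 5 comparisons, with list medians in black and the median of all genes tested dashed. All 40 genes lie above 0 for nephrogenic-zone against other stroma, and 6 circles are filled over all comparisons.

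By role, the gene counted most often shows how the classes ranked. Of origin licensing that was Mcm7, counted in Drop-seq in 53.2% of cap mesenchyme, 58.1% of early nephron epithelium, 42% of ureteric epithelium, 41.7% of nephrogenic-zone stroma, 42.5% of other stroma and 41.2% of endothelium. 10x gave 37.6% of cap mesenchyme, 43.8% of early nephron epithelium, 28.9% of ureteric epithelium, 43.9% of nephrogenic-zone stroma, 25.1% of other stroma and 37.2% of endothelium. C1 gave 91.3% of cap mesenchyme, 100% of early nephron epithelium, 91.6% of ureteric epithelium, 79.2% of nephrogenic-zone stroma, 71.5% of other stroma and 86.3% of endothelium. Early nephron epithelium was the highest of these in Drop-seq and C1, and in 10x the nephrogenic-zone stroma stood level with it. Mcm3, of the same complex, was counted in Drop-seq in 37.6% of cap mesenchyme, 41.5% of early nephron epithelium, 36.8% of ureteric epithelium, 39.2% of nephrogenic-zone stroma, 39% of other stroma and 45.1% of endothelium, a flatter order. The 10x shares were 32.9% of cap mesenchyme, 33.8% of early nephron epithelium, 30.4% of ureteric epithelium, 42.9% of nephrogenic-zone stroma, 26.1% of other stroma and 35.4% of endothelium. The C1 shares were 70.9% of cap mesenchyme, 76.4% of early nephron epithelium, 63.9% of ureteric epithelium, 58.5% of nephrogenic-zone stroma, 45% of other stroma and 71.2% of endothelium.

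Of the G1/S cyclins it was Ccne1, which ranked the classes otherwise than Mcm7 in each library. In C1 early nephron epithelium was again the highest, but both stromal classes stood above ureteric epithelium and endothelium. In Drop-seq Ccne1 was counted in 18.9% of cap mesenchyme, 19.1% of early nephron epithelium, 12.6% of ureteric epithelium, 33.7% of nephrogenic-zone stroma, 23.3% of other stroma and 10.8% of endothelium. The 10x shares were 18.1% of cap mesenchyme, 10% of early nephron epithelium, 14.1% of ureteric epithelium, 40.6% of nephrogenic-zone stroma, 21.4% of other stroma and 8.93% of endothelium. In both UMI libraries nephrogenic-zone stroma was the highest of these classes. The C1 shares were 54.7% of cap mesenchyme, 69.1% of early nephron epithelium, 44.6% of ureteric epithelium, 53.8% of nephrogenic-zone stroma, 49% of other stroma and 43.8% of endothelium. In the 10x proximal tubule it was counted in 1.15% of cells, against 5.56% of podocytes. Pcna, the sliding clamp of the replication fork, was counted in Drop-seq in 62.4% of cap mesenchyme, 71.1% of early nephron epithelium, 56.9% of ureteric epithelium, 62.2% of nephrogenic-zone stroma, 68.5% of other stroma and 64.7% of endothelium. For 10x the shares were 31.9% of cap mesenchyme, 39.2% of early nephron epithelium, 29.6% of ureteric epithelium, 34.4% of nephrogenic-zone stroma, 27% of other stroma and 29.5% of endothelium. For C1 the shares were 93.7% of cap mesenchyme, 94.5% of early nephron epithelium, 89.2% of ureteric epithelium, 84.9% of nephrogenic-zone stroma, 78.8% of other stroma and 91.8% of endothelium. Over all cells the difference in percentage points between the UMI platforms was larger than for any other replication gene, with 61.6% of Drop-seq against 29.4% of 10x cells at 4000 UMIs. Slbp, which binds the stem-loop of histone mRNA, led nucleotide supply and histone mRNA. It was counted in Drop-seq in 42.4% of cap mesenchyme, 53.7% of early nephron epithelium, 50% of ureteric epithelium, 49.7% of nephrogenic-zone stroma, 45.9% of other stroma and 40.2% of endothelium. The 10x library had it in 51% of cap mesenchyme, 43.1% of early nephron epithelium, 56.3% of ureteric epithelium, 62.7% of nephrogenic-zone stroma, 49% of other stroma and 55.1% of endothelium. The C1 library had it in 91.3% of cap mesenchyme, 90.9% of early nephron epithelium, 88% of ureteric epithelium, 80.2% of nephrogenic-zone stroma, 73.5% of other stroma and 90.4% of endothelium.

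Among mitosis genes, Cdk1, the kinase of mitotic entry, was counted in Drop-seq in 39.2% of cap mesenchyme, 50.8% of early nephron epithelium, 36.2% of ureteric epithelium, 53.5% of nephrogenic-zone stroma, 46.6% of other stroma and 52.9% of endothelium. For 10x the shares were 24.8% of cap mesenchyme, 44.6% of early nephron epithelium, 37% of ureteric epithelium, 43.9% of nephrogenic-zone stroma, 34.2% of other stroma and 52.1% of endothelium. For C1 the shares were 76.8% of cap mesenchyme, 90.9% of early nephron epithelium, 79.5% of ureteric epithelium, 75.5% of nephrogenic-zone stroma, 53.6% of other stroma and 86.3% of endothelium. Cap mesenchyme stood below endothelium in all 3. Top2a, which untangles sister chromatids, was counted in Drop-seq in 52.2% of cap mesenchyme, 69.1% of early nephron epithelium, 51.1% of ureteric epithelium, 62.2% of nephrogenic-zone stroma, 46.6% of other stroma and 58.8% of endothelium. 10x gave 39.5% of cap mesenchyme, 53.8% of early nephron epithelium, 43.7% of ureteric epithelium, 43.4% of nephrogenic-zone stroma, 37.1% of other stroma and 44% of endothelium. C1 gave 88.6% of cap mesenchyme, 94.5% of early nephron epithelium, 95.2% of ureteric epithelium, 90.6% of nephrogenic-zone stroma, 82.8% of other stroma and 93.2% of endothelium. Podocytes were not a class without Top2a: it was counted in 53.2% of Drop-seq podocytes and 41.7% of 10x podocytes. Their median depths were 6741 and 6812 UMIs, against 7060 and 7369 over all cells.

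Ube2c, of anaphase promotion, shares 592 exonic bases with Tnnc2 on the other strand. It was counted in Drop-seq in 46.4% of cap mesenchyme, 68.3% of early nephron epithelium, 49.4% of ureteric epithelium, 58.3% of nephrogenic-zone stroma, 45.2% of other stroma and 57.8% of endothelium. The 10x library had it in 33.3% of cap mesenchyme, 49.2% of early nephron epithelium, 37% of ureteric epithelium, 41% of nephrogenic-zone stroma, 35.9% of other stroma and 42.9% of endothelium. The C1 library had it in 79.9% of cap mesenchyme, 92.7% of early nephron epithelium, 79.5% of ureteric epithelium, 71.7% of nephrogenic-zone stroma, 57.6% of other stroma and 78.1% of endothelium. Early nephron epithelium was the highest of these classes for Ube2c in all 3 libraries. Cenpa, the centromeric histone, was counted in Drop-seq in 41.7% of cap mesenchyme, 60.2% of early nephron epithelium, 51.1% of ureteric epithelium, 49.3% of nephrogenic-zone stroma, 43.2% of other stroma and 53.9% of endothelium. The 10x shares were 30% of cap mesenchyme, 56.2% of early nephron epithelium, 31.1% of ureteric epithelium, 51.9% of nephrogenic-zone stroma, 31.1% of other stroma and 51.8% of endothelium. The C1 shares were 70.5% of cap mesenchyme, 98.2% of early nephron epithelium, 72.3% of ureteric epithelium, 71.7% of nephrogenic-zone stroma, 58.3% of other stroma and 76.7% of endothelium. The early nephron was again the highest in each library.

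Birc5 was counted in Drop-seq in 49.6% of cap mesenchyme, 66.3% of early nephron epithelium, 51.1% of ureteric epithelium, 61.1% of nephrogenic-zone stroma, 47.9% of other stroma and 65.7% of endothelium. 10x gave 40% of cap mesenchyme, 60.8% of early nephron epithelium, 37% of ureteric epithelium, 57.5% of nephrogenic-zone stroma, 40% of other stroma and 60.7% of endothelium. C1 gave 84.6% of cap mesenchyme, 96.4% of early nephron epithelium, 88% of ureteric epithelium, 85.8% of nephrogenic-zone stroma, 72.8% of other stroma and 89% of endothelium. For Birc5, early nephron epithelium and endothelium stood within 1 point of each other in Drop-seq and 10x, above the other classes. Tpx2, which nucleates spindle microtubules, was counted in Drop-seq in 31.8% of cap mesenchyme, 42.3% of early nephron epithelium, 33.3% of ureteric epithelium, 38.2% of nephrogenic-zone stroma, 33.6% of other stroma and 30.4% of endothelium. For 10x the shares were 20% of cap mesenchyme, 33.1% of early nephron epithelium, 22.2% of ureteric epithelium, 30.2% of nephrogenic-zone stroma, 20.1% of other stroma and 27.1% of endothelium. For C1 the shares were 64.6% of cap mesenchyme, 83.6% of early nephron epithelium, 65.1% of ureteric epithelium, 57.5% of nephrogenic-zone stroma, 44.4% of other stroma and 64.4% of endothelium. Early nephron epithelium led for Tpx2 in all 3 libraries. Psrc1, in the same role as Tpx2, was rare: in Drop-seq it was counted in 12.6% of cap mesenchyme, 17.1% of early nephron epithelium, 6.90% of ureteric epithelium, 11.8% of nephrogenic-zone stroma, 11% of other stroma and 9.80% of endothelium. The 10x library had it in 13.3% of cap mesenchyme, 10.8% of early nephron epithelium, 8.15% of ureteric epithelium, 9.43% of nephrogenic-zone stroma, 7.47% of other stroma and 5.06% of endothelium. The C1 library had it in 33.1% of cap mesenchyme, 41.8% of early nephron epithelium, 21.7% of ureteric epithelium, 27.4% of nephrogenic-zone stroma, 16.6% of other stroma and 24.7% of endothelium. Psrc1 and Cdc20, though kept out of the clustering, were among the 10 leading genes of a Drop-seq cap mesenchyme cluster of 104 cells with a median of 9919 UMIs.

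The 28 genes not given by class include rare ones. In 10x ureteric epithelium Cdc6 and Ccne2 were each counted in 2.96% of cells and Kif11 in 4.44%. In all kept cells of Drop-seq, the other helicase, licensing and fork genes ran from 11.9% (Cdc6) to 44.4% (Lig1), and the other mitotic kinases and checkpoint genes from 14.9% (Bub1b) to 37.1% (Cenpe). In all, 11 of the 40 share exonic bases with another gene in GENCODE M21: besides Mcm7 and Ube2c, they are Gins2, Ccne2, Ccna2, Slbp, Lig1, Nusap1, Plk1, Top2a and Cdc20, with the most (2758 bases) for Gins2 and Gse1.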

How the data were processed

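RNA of single cells from wild-type E14.5 mouse kidney was counted in 3 libraries, 1 per platform. The authors deposited raw counts per gene and cell, UMIs in Drop-seq and 10x Chromium and reads in Fluidigm C1; the values are whole numbers. Per the submitters' processing notes, 10x reads went through Cell Ranger 1.3.0, those of the other 2 platforms through Bowtie2 2.2.7, and the build was mm10. The labels repeat the Drop-seq protocol for every sample. For Drop-seq and C1, the counting tool, annotation and strand setting are also not stated in the sources used here. The deposited normalized tables were not used.

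The tables held 17968883, 18113966 and 173799153 counts in 2000, 2295 and 894 barcodes. Cells with under 500 genes or over 20% mitochondrial counts were left out (the C1 table lists no mitochondrial gene). Doublets called were removed in 10x (17) and C1 (11); the 5 called in Drop-seq were under 0.5% of its cells and none was removed. Each library was clustered with scanpy 1.11.5 (2000 variable genes, 30 components, 15 neighbours, Leiden resolution 1) without the cell cycle genes. Clusters were named from fixed markers, with at least 3 detected. Raw counts were summed per library and class of 20 or more cells and tested in edgeR 4.0.16 (TMM, quasi-likelihood F test, library as block); adjustment ran over genes used neither to cluster nor to name. DESeq2 1.42.0 was an alternative. Thinning drew counts without replacement. On data simulated for cap mesenchyme against stroma (12240 genes), the test recovered 33 of 100 genes changed 2-fold and 74 of 100 changed 4-fold, with 5 false calls. Intervals are exact binomial (Clopper-Pearson) and cover counting error only.

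The members and lists were chosen with earlier results of these data known. Genes named are all members past the threshold, in each of 10 roles the member with the highest mean share over Drop-seq and 10x, and of the other lists up to 4 genes per comparison with the smallest p past the threshold. Names and positions are from GENCODE M21 and promoters from RefSeq on GRCm38.p6.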

Additional observations from a re-analysis of the deposited data

Results flagged for a closer look

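Results are given here where the 3 libraries went in different directions; the differences between libraries were not tested. Mcm7, called higher in endothelium than in stroma, was higher in 2 of 3 libraries. At the cut of 2 or more genes, the share of cells with replication genes in cap mesenchyme was higher than in stroma in 2 libraries (91.0% against 88.3% in 10x, 100% against 99.6% in C1) and lower in Drop-seq (95.1% against 95.6%). In ureteric against nephron epithelium it was higher in 1 library, 10x (80.0% against 77.2%), lower in Drop-seq (91.4% against 91.9%) and equal in C1. In endothelium against stroma it was higher in 2 libraries (90.5% against 88.3% in 10x, 100% against 99.6% in C1) and lower in Drop-seq (95.1% against 95.6%). In nephrogenic-zone against other stroma it was higher in 2 libraries (97.2% against 84.4% in 10x, 100% against 99.3% in C1) and lower in Drop-seq (95.1% against 96.6%). The share with 2 or more mitosis genes there was higher in 2 libraries (80.2% against 59.8% in 10x, 99.1% against 98.7% in C1) and stood at 84.7% against 84.9% in Drop-seq.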

How the results depend on the processing

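The signs of the lists held more widely than the calls. For nephrogenic-zone against other stroma, all 18 replication and all 22 mitosis genes were above 0 under each of 18 settings, the reported one included. Their medians were 0.36 to 0.69 and 0.42 to 0.88. These settings were not independent. Those with narrower cap or early nephron classes left the stromal cells unchanged. DESeq2, upper-quartile scaling, no filter and no library block used the same sums as the reported fit. For nephron epithelium against cap mesenchyme, 17 to 21 of 22 mitosis genes were above 0, while the replication median ran from -0.38 to 0.08, above 0 with early nephron alone. The replication median ran across 0, from -0.30 to 0.13, for ureteric against nephron epithelium, as did both medians for cap mesenchyme against stroma (-0.02 to 0.16 and -0.19 to 0.10). Scaling moved no all-gene median by over 0.1. No paired analysis was possible between platforms because each has 1 library; classes were compared within libraries, and the reported fit pairs them with library as a block. Each of the 6 called values kept its sign in every setting, and 33 of 87 settings lost the call; the cause was not tested.

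Leaving out 1 library gave 0 to 2 members called for cap mesenchyme against stroma, 0 to 4 for nephron epithelium against cap mesenchyme, 0 to 2 for ureteric against nephron epithelium, 0 to 3 for endothelium against stroma and 0 for the zone comparison. The counts of all genes called moved with the setting too, among 8557 to 13927 genes tested. Over the 18 settings they ran, higher then lower, from 0 to 680 and 0 to 524 for cap mesenchyme against stroma. For nephron epithelium against cap mesenchyme they ran from 36 to 548 and 4 to 406. They ran from 5 to 460 and 4 to 381 for ureteric against nephron epithelium, and from 107 to 1137 and 48 to 1056 for endothelium against stroma. In cap mesenchyme against stroma (1 member called), 2 were called with no filter on low counts, classes by marker z score, no doublet removed, C1 name groups as blocks, thinned sums, or cap clusters with 2 leading cap markers, and 0 with no library block. In nephron epithelium against cap mesenchyme (1), 2 were called by DESeq2, at resolution 1.6 and without cycle-correlated genes, 3 at resolution 0.6, and 0 with no library block or early nephron only. In ureteric against nephron epithelium (0), 1 was called at resolution 0.6, by z score and with no doublet removed, 2 at resolution 1.6 and 4 with early nephron only. In endothelium against stroma (4), 5 were called with no doublet removed or thinned sums, 3 with no filter, without cycle-correlated genes or with C1 name groups as blocks, 2 with upper-quartile scaling, resolution 0.6, or the narrower cap or early nephron classes in the fit, and 0 with no library block. In the zone comparison (0), DESeq2 called 11, resolution 1.6 called 27, clustering without cycle-correlated genes 9, no filter, C1 name groups as blocks and thinned sums 2 each, and no doublet removed or Aldh1a2 not a marker 1 each; all genes called there numbered 0 to 367.

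Of the number of libraries with a higher share at the cut of 2 genes, changes were as follows. Replication, cap against stroma (2 libraries): 1 with cells not thinned or cycle-correlated genes out. Replication, nephron against cap (0): 1 at 2000 UMIs or 25000 reads, with cycle-correlated genes out and with early nephron only. Replication, ureteric against nephron (1): 0 at 2000 UMIs or 25000 reads, not thinned and with early nephron only, and 2 at cuts of 3, 5 and 10 genes, resolution 1.6, z score and no doublet removed. Replication, endothelium against stroma (2): 1 not thinned and at 10 genes, 0 at 1 gene. Replication, zone (2): 3 at cuts of 3, 5 and 10 genes, 1 not thinned and by z score. Mitosis, cap against stroma (0): 1 at 2000 UMIs or 25000 reads, at 1 and 10 genes and with no doublet removed, 2 not thinned and at 5 genes. Mitosis, nephron against cap (3): 1 not thinned and at 1 gene. Mitosis, ureteric against nephron (0): 1 at 2000 UMIs or 25000 reads, at 3 and 10 genes, at resolution 1.6, by z score and with no doublet removed. Mitosis, zone (2): 3 at cuts of 1, 3, 5 and 10 genes, 1 with cycle-correlated genes out. The rarest genes rest on the fewest cells: Ccne2, Cdc6 and Kif11 were counted in 6.06%, 6.48% and 6.64% of 10x cells at 4000 UMIs.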
